A study of Mus musculus with 2 samples.

Results

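The osteocalcin genes Bglap, Bglap2 and Bglap3, which lie side by side on chromosome 3, were examined together with Mgp (matrix Gla protein) and Sparc (osteonectin). These 5 genes were chosen by name, out of 21931 protein-coding genes with calls in both libraries. CG methylation was read within 2 kb on either side of each transcription start site (TSS) and in 200 bp bins over each gene with 25 kb on each side. The DNA came from primary osteoblasts of 3-day-old C57BL/6 mice that were cultured for 3 days. In the paper's cell culture methods, primary osteoblasts were isolated from calvarial bone, using the parietal bone of the skull. Whole genome bisulfite sequencing (WGBS) was done on 1 wild type (WT) library and 1 TCKO library. TCKO mice carry Prx1-Cre and are fl/fl, that is floxed on both alleles, at each of Tet1, Tet2 and Tet3, while no Cre or floxed allele is described for the WT mice. Prx1-Cre is driven by a limb-bud mesenchyme enhancer and is also active in part of the skull, so cells of other lineages in a bone culture can keep the genes. Whether the DNA of a library came from 1 mouse or from pooled mice is not given in the sources used here. With 1 library per genotype, no difference has a replicate check, and every test below compares the 2 libraries and not the genotypes.

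Osteocalcin is the most abundant noncollagenous protein that osteoblasts secrete into bone. It carries glutamates that a vitamin K-dependent carboxylase converts to Gla residues, with which it binds calcium and hydroxyapatite, and a less carboxylated form has been studied as a hormone in mice. Mouse Bglap and Bglap2 encode the bone protein, and Bglap3, also called osteocalcin-related gene, is expressed outside bone. Matrix Gla protein is carboxylated in the same way and keeps cartilage and the walls of arteries from calcifying. SPARC is a glycoprotein of bone matrix that binds collagen and calcium and has no Gla residues. TET enzymes oxidise 5-methylcytosine (5mC) to 5-hydroxymethylcytosine (5hmC) and further, a step towards its removal. Bisulfite reads 5mC and 5hmC alike, so "methylated" covers both, and expression was not measured here.

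The promoters of the members show how few CpGs each start site offers to the measurement. Of the 5 genes, 3 matched the RefSeq promoter table (GRCm38), where Bglap3 has 3 start sites. The 250 bases before the start are printed from 5′ to 3′ on the minus strand, on which all 5 genes lie, with each CpG in capitals. Bglap is shown at chr3:88384467-88384716, Bglap3 at chr3:88372742-88372991 for its outer start and at chr3:88369832-88370081 for its inner start, and Sparc at chr11:55420081-55420330.
Bglap: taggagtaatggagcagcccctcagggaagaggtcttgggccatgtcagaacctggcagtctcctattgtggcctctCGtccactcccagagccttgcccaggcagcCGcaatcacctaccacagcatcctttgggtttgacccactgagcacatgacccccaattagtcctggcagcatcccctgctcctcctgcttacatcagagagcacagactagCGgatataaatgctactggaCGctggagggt
Bglap3 outer start: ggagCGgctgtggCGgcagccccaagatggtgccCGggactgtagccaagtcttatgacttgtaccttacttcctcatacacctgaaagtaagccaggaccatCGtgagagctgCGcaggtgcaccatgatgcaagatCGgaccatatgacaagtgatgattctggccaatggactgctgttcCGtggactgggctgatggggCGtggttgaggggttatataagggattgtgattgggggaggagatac
Bglap3 inner start: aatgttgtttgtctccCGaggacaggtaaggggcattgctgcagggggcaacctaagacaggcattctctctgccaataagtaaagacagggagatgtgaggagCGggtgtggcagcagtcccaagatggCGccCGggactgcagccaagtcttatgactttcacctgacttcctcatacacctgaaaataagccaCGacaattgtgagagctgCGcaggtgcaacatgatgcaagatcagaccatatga
Sparc: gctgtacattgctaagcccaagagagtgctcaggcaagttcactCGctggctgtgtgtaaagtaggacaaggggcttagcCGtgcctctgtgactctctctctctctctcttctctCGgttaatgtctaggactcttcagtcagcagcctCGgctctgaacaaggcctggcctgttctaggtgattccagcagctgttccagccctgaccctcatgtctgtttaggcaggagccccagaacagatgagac
The Bglap stretch has 4 CpGs, the outer and inner Bglap3 stretches have 8 and 6, and the Sparc stretch has 4. The best local alignment of both Bglap3 stretches spans 150 columns with 90.7% identical bases. That of the outer stretch and the promoter of the remaining Bglap3 start spans 258 columns with 50.4%. Aligned over their whole length, Bglap and the outer Bglap3 promoter match in 47.8% of 278 columns. In the 250 bases before and 50 after each start, searched on both strands, Bglap held TATAAA from -27 to -22 and CCAAT from -90 to -86, counted from -1 at the base before the start. The outer Bglap3 promoter held CCAAT once on each strand. The inner Bglap3 window held CCAAT from -177 to -173 and from 16 to 20, and that of the remaining Bglap3 start from -228 to -224. TATAAA is found in 13.6% and CCAAT in 37.4% of the 32851 promoters of the table. The Runt strings AACCACA (5.27% of promoters) and AACCGCA (1.56%) and the AP-1 strings TGACTCA or TGAGTCA (5.20%) have no exact copy in these windows. Inexact copies were not searched. The printed Bglap stretch holds TACCACA, which differs from AACCACA in its first base. The windows cover the promoters of 3 of the 5 genes only.

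Next, 4 bins called higher at Mgp and Sparc are shown, because they are described CpG by CpG or by level below. A pair lies in intron 1 of Mgp, at chr6:136874801-136875000 and chr6:136875201-136875400. A distal one lies upstream of Mgp at chr6:136898001-136898200 and another upstream of Sparc at chr11:55428001-55428200. All are read from GRCm38 on the minus strand with each CpG in capitals, and they were picked after their values were seen. Other called bins of both loci had larger differences than some of these and are given by their values.
Mgp intron 1, inner bin: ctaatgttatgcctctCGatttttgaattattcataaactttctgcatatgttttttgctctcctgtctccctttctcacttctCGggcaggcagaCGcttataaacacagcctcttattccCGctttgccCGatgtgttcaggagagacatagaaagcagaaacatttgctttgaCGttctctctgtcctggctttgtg
Mgp intron 1, outer bin: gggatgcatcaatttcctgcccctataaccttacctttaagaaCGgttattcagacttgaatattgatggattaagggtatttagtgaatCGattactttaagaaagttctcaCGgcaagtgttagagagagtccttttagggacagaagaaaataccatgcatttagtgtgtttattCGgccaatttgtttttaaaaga
Mgp upstream bin: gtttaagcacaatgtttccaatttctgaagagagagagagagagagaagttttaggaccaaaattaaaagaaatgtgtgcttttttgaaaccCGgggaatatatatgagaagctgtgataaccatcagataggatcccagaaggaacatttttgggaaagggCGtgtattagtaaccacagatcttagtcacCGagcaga
Sparc upstream bin: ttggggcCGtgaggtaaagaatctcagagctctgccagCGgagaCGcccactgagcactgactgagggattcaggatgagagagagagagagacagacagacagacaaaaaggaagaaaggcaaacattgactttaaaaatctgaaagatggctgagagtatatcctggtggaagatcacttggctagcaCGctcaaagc
They hold 6, 4, 3 and 4 whole CpGs. Repeats and low-complexity sequence marked in the reference cover 9.50%, 10%, 28.5% and 33.5% of their bases. Of the strings searched in the promoters, the Mgp upstream bin holds the Runt string AACCACA and CCAAT. The inner bin of Mgp intron 1 holds TATAAA, the outer bin holds CCAAT and the Sparc upstream bin holds none. The shares of promoters given above do not apply to bins.

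Over the nuclear chromosomes the WT library held 261062118 calls, of which 70.2% were methylated, and the TCKO library held 223581206, of which 76.3% were methylated, with a median of 4 calls per covered cytosine in both. The deletion was not checked independently. As a description, a stretch of Tet1 had 755 calls in WT and 70 in TCKO, one of Tet2 had 122 and 13, and one of Tet3 had 133 and 9. Each stretch is a run of 500 bp windows in which TCKO kept 25% or less of the WT calls, and in each gene the run with most calls was taken, so the low TCKO depth was set by the choice. The share of cells that kept the genes is not known from these data, and its part in the levels below was not tested. In WT the TSS windows of the 5 osteoblast markers ran from 3.38% to 55.6% methylated and those of 5 blood markers from 66.1% to 78.9%. The ranges of endothelial (40.6% to 77.6%), muscle (34.1% to 67.0%) and epithelial markers (41.8% to 50.9%) overlapped that of the osteoblast markers. Over all 21931 TSS windows the median level was 45.1% in WT and 50.3% in TCKO, and the median difference was 4.69 percentage points. All intervals are 95% intervals (Wilson for a level, Newcombe for a difference) and cover counting error only. The intervals and the Fisher exact tests below take each call as independent, but calls on 1 read are not. The intervals can therefore be too narrow and the p-values too small.

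Around the TSS the 5 genes fell, in WT, into a highly methylated trio and a pair with lower methylation. Of them, Mgp and Bglap3 were higher in TCKO, while Bglap, Bglap2 and Sparc did not pass the test. Passing meant an adjusted p below 0.05 in a Fisher exact test (2-sided), with p-values adjusted by Benjamini and Hochberg's method for all 21931 windows. That rule called 37.7% of all windows higher and 2.81% lower in TCKO, so 2 of 5 genes called higher is close to the background share. In WT the level at Bglap exceeded that of 94.9% of all windows, at Bglap2 that of 83.9%, at Bglap3 that of 95.4%, at Mgp that of 25.9% and at Sparc that of 33.9%.

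**Figure D1:**
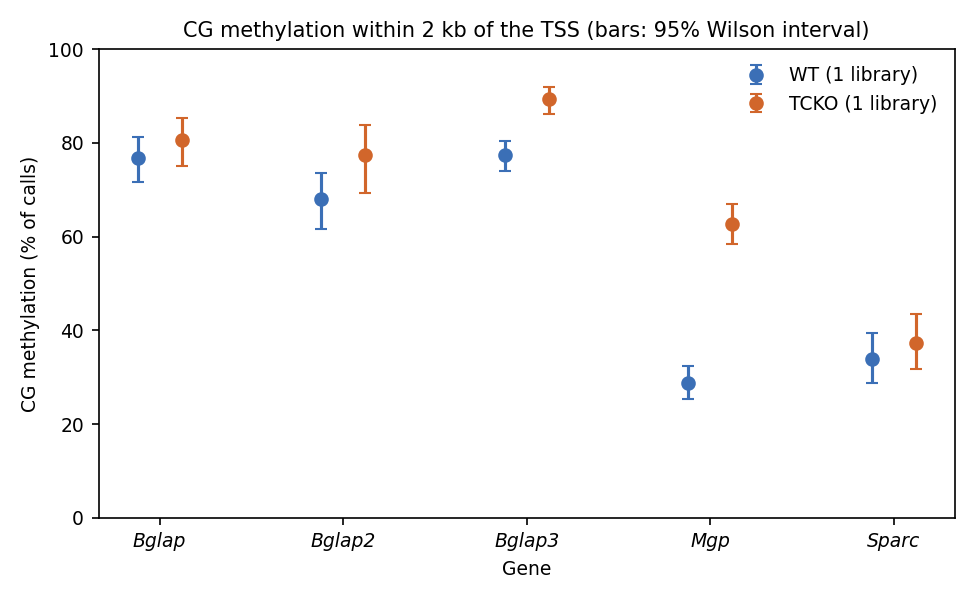
CG methylation (percent of calls) within 2 kb of the TSS of the 5 genes in the WT and TCKO library; bars are 95% Wilson intervals. The osteocalcin genes sit between 68.0% and 89.4% in both libraries, the intervals of Mgp lie far apart (28.8% and 62.8%), and those of Sparc overlap (34.0% and 37.4%).

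Bglap, which encodes bone osteocalcin (ENSMUSG00000074483.2, chr3:88383501-88384464, minus strand), had 229 methylated of 298 calls in WT and 176 of 218 in TCKO. This is 76.8% (71.7% to 81.3%) against 80.7% (75.0% to 85.4%). The difference of 3.89 points (-3.37 to 10.8) was within counting error (Fisher exact test, adjusted p = 0.466) and below the median of all windows. The interval leaves room for a gain of up to 10.8 points. The 2 DNA strands gave unlike values, with -4.39 points on the plus strand and 16.1 points on the minus strand, the latter past the threshold (Fisher exact test, adjusted p = 0.0270). The 2 kb upstream of the TSS were at 78.1% in WT (137 calls) and 78.0% in TCKO (123 calls), and the 2 kb downstream were at 75.8% (161 calls) and 84.2% (95 calls). Both libraries thus had most calls methylated on either side of the start. In the 250 bases printed above, the CpG nearest the start, at -11, had no methylated call among 2 in WT and 5 in TCKO, while the farthest, at -173, had every call methylated among 4 in each library. The 4 CpGs of that stretch together had 13 calls in WT and 17 in TCKO, too few to tell the libraries apart.

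Bglap2, the adjacent copy that also encodes bone osteocalcin (ENSMUSG00000074486.2, chr3:88377736-88378699, minus strand), had 155 methylated of 228 calls in WT and 99 of 128 in TCKO. Its level was 68.0% (61.7% to 73.7%) in WT and 77.3% (69.4% to 83.7%) in TCKO, a difference of 9.36 points (-0.459 to 18.3) that did not pass (Fisher exact test, adjusted p = 0.134). The 2 sides of the start gave unlike values, which were not tested against each other. Over the 2 kb upstream the level was 68.9% in WT (from 151 calls) and 85.1% in TCKO (from 74 calls), a difference of 16.3 points (4.29 to 26.3), and tested as a window of its own among all genes it passed (Fisher exact test, adjusted p = 0.0380). Over the 2 kb downstream it was 66.2% (77 calls) and 66.7% (54 calls). The last 400 bp before the start held the lowest WT level of the window, 19.2% (5 methylated of 26 calls), and had 57.1% in TCKO, there from 7 calls only (25% to 84.2%).

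Bglap3 (ENSMUSG00000074489.9, chr3:88368616-88372743, minus strand) was called higher in TCKO from a high WT level. Its outer start had 485 methylated of 627 calls in WT, 77.4% (73.9% to 80.5%), and 381 of 426 in TCKO, 89.4% (86.2% to 92.0%). The difference was 12.1 points (7.57 to 16.4, Fisher exact test, adjusted p = 3.06e-06), and 17.0% of all windows gained more. From plus-strand cytosines alone the difference was 8.52 points and did not pass (Fisher exact test, adjusted p = 0.0893). Downstream of the start the level went from 78.5% (461 calls) to 92.4% (314 calls), with intron 1 at 71.8% and 88.4%, and upstream it stood at 74.1% (166 calls) and 81.3% (112 calls), where the interval of the difference includes 0 (-3.06 to 16.6). In the 1 kb nearest the start the difference was 13.4 points upstream (-3.77 to 25.6) and 17.6 points downstream (10.3 to 24.2), and the sides were not tested against each other. The inner start, 2912 bp further along the gene, gave 86.9% (389 calls) against 89.7% (369 calls) in TCKO, apart by 2.81 points (-1.81 to 7.41), which did not pass (Fisher exact test, adjusted p = 0.391). Both starts therefore had most calls methylated, and the window of the outer one passed while that of the inner one did not, a difference that was not tested. The windows of both starts overlap in part and share calls. The 8 CpGs of the outer promoter had 78.5% in WT (65 calls) and 91.7% in TCKO (24 calls), and the 6 of the inner one had 93.8% (32 calls) and 93.5% (31 calls).

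The copies of osteocalcin share much of their sequence, and reads that map to more than 1 place were not used by the authors. Bglap and Bglap2 are both 964 bp long and have the same base at 939 positions (97.4%). Bglap3 from its inner start is 1216 bp long and shares 942 bases with Bglap2 over 1216 aligned columns (77.5%). Of the CG cytosines within 2 kb of the TSS, 79.0% at Bglap and 83.3% at Bglap2 lay in 50-base stretches that, after bisulfite conversion, occur more than once in the 3 loci examined here. The share was 22.1% at Bglap3, 2.42% at Sparc and 0 at Mgp. Depth in the TSS windows ran from 1.52 calls per cytosine (Bglap2, TCKO) to 5.14 (Bglap3, WT). Without the cytosines in repeated stretches, Bglap had a difference of -5.55 points (112 WT calls), Bglap2 18.4 points (38 WT calls) and Bglap3 12.9 points (542 WT calls). Only that of Bglap3 passed (Fisher exact test, adjusted p = 2.14e-06). The part of misplaced reads in the levels of Bglap and Bglap2 was not tested.

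**Figure D2:**
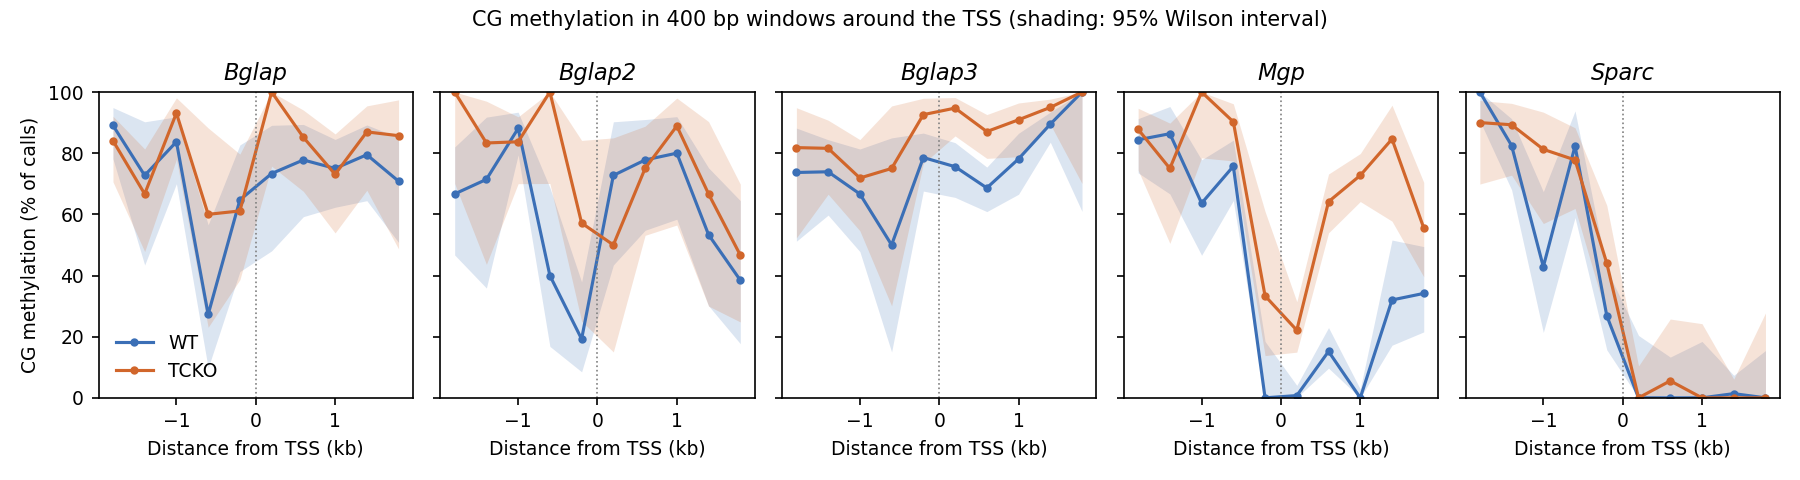
CG methylation (percent of calls) in 10 windows of 400 bp from 2 kb upstream to 2 kb downstream of the TSS of each gene; shading is the 95% Wilson interval. The osteocalcin genes are mostly high with wide intervals, Mgp drops to 0% before its start in WT and climbs to 72.7% in TCKO between 800 and 1199 bp downstream, and Sparc stays between 0% and 5.56% after its start in both libraries.

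Over the whole cluster with its flanks (chr3:88343616-88409464, 1660 CG cytosines) the level stood at 74.3% in WT (6664 calls) and 79.4% in TCKO (5388 calls), 5.15 points apart (3.64 to 6.65). Of its 292 bins with a CG, 62 were testable, that is, they had 4 or more CG cytosines, covered on average by 4 or more reads per cytosine in WT and in TCKO. None of the 62 was called, where a call needs a difference above 40 points and an adjusted p below 0.05 (Fisher exact test, adjusted over 2487317 testable bins of the genome). In 4 of the 62 the unadjusted p was below 0.05. Across the genome 2.91% of the testable bins were called higher and 0.0348% lower in TCKO. The median bin of the cluster was at 86.3% in WT and 91.0% in TCKO, so there was little room for a gain above 40 points. Just 7 of the 62 bins were below 60% in WT, where such a gain is possible, and across the genome 14.0% of the bins below 60% were called.

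Among the testable bins of the cluster the largest difference was 26.6 points, in a bin centred at -2758 bp from the Bglap3 start, that is upstream of it (59.1% of 22 calls in WT and 85.7% of 21 in TCKO). It was followed by a bin in intron 1 of Bglap3, centred 642 bp after its start, with 60% of 75 calls and 84.4% of 45 (adjusted p = 0.0872 in the Fisher exact test). The bin over the outer Bglap3 start had 72.2% of 79 calls and 93.5% of 46 (exact test, adjusted p = 0.0630). The bins over the starts of Bglap and Bglap2 held 5 and 10 calls in WT and were not testable. Larger differences stood in bins below the depth required, such as the one centred at -24668 bp from the Bglap start with 30.8% of 26 calls in WT and 85.7% of 14 in TCKO. Of the testable bins of the cluster, 2 were below 30% in WT, and both were also below 30% in TCKO. One, centred 5642 bp downstream of the outer Bglap3 start and past the end of the gene, had 8.93% of 56 calls in WT and 15.7% of 51 in TCKO. The other, centred 2598 bp downstream of the Bglap2 start, had 10.9% of 55 calls and 14.3% of 56. Some bins below the depth required were low in both libraries as well. The one centred 2532 bp downstream of the Bglap start had 6.76% of 74 calls in WT and 7.14% of 42 in TCKO. The one centred 2398 bp downstream of the Bglap2 start had 6.78% of 59 calls in WT and 0 of 40 in TCKO, which allows up to 7.5%.

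Paqr6, a receptor gene next to Bglap3, is the one other protein-coding gene with a TSS in the cluster. Its window had 51.9% in WT (524 calls) and 65.7% in TCKO (335 calls), higher by 13.8 points (Fisher exact test, adjusted p = 4.09e-04). The neighbour of Mgp, Art4, which encodes an ADP-ribosyltransferase of the red cell surface, had 56.2% (457 calls) and 69.5% (347 calls), higher by 13.2 points (Fisher exact test, adjusted p = 7.01e-04). No other protein-coding gene has its TSS within the Sparc locus.

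Mgp (ENSMUSG00000030218.2, chr6:136872435-136875823, minus strand) had the largest difference of the 5 genes. Within 2 kb of the TSS, 187 of 649 calls were methylated in WT and 302 of 481 in TCKO. The level was 28.8% (25.5% to 32.4%) in WT and 62.8% (58.4% to 67.0%) in TCKO, higher by 34.0 points (28.3 to 39.3, Fisher exact test, adjusted p = 1.27e-27). Of all 21931 windows, 0.315% differed by more in the same direction. The level was higher in TCKO on both sides of the start. The 2 kb downstream went from 9.03% (443 calls) to 55.7% (357 calls), 46.7 points apart (40.7 to 52.3). The 2 kb upstream went from 71.4% (206 calls) to 83.1% (124 calls), 11.7 points apart (2.21 to 20.3), and tested alone they did not pass (Fisher exact test, adjusted p = 0.0611). In the 1 kb before the start the difference was 20.4 points (6.83 to 32.0), and in the last 400 bp before it WT had 0 of 17 calls methylated, which allows up to 17.6%, and TCKO had 33.3% of 12.

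Within Mgp, exon 1 and intron 1 differed from each other in TCKO. Exon 1 had 0 of 33 calls methylated in WT, which allows a share of up to 9.09%, and 0 of 28 in TCKO, which allows up to 10.7%. Intron 1 had 7.05% (4.85% to 10.1%, 369 calls) in WT and 61.1% (55.4% to 66.5%, 293 calls) in TCKO, 54.0 points apart (47.6 to 59.9). Intron 2 had 57.3% (157 calls) and 80.5% (149 calls), 23.2 points apart (12.9 to 32.8). Exon 4, which holds the end of the coding sequence, had 75.5% (98 calls) and 74.8% (119 calls), and intron 3 had 77.5% (71 calls) and 77.3% (44 calls). Among these parts the intervals of the first 2 introns excluded 0, while those of intron 3 (-16.6 to 14.6) and exon 4 (-12.0 to 10.9) included it.

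The inner bin of intron 1 printed above, centred 922 bp after the start, had the lowest p of the testable bins of the 3 loci. It had 0 of 127 calls methylated in WT, which allows up to 2.36%, and 81 of 112 in TCKO, 72.3% (63.4% to 79.8%). The difference of 72.3 points (62.9 to 79.8) passed at an adjusted p of 4.47e-34 (Fisher exact test). Each of its 6 CpGs had no methylated call in WT, from 13 to 30 calls each, and between 60.9% and 88.9% in TCKO, from 14 to 23 calls. The whole bin, not a single CpG, carried the difference. The outer bin, centred 522 bp after the start, had 13.9% of 79 calls in WT and 64.1% of 64 in TCKO, which passed (adjusted p = 6.38e-08 in the exact test). Its 4 CpGs were between 5.56% and 21.1% in WT and between 58.3% and 68.8% in TCKO.

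Closer to the start the level in TCKO was lower. The bin centred 322 bp after it had 3.06% of 98 calls in WT and 38.5% of 65 in TCKO, a difference of 35.4 points that was below the 40 required (Fisher exact test, adjusted p = 4.84e-07). The bin centred 122 bp after it had 0 of 56 calls in WT, which allows up to 5.36%, and 6.82% of 44 in TCKO (exact test, adjusted p = 0.396). From 122 to 922 bp after the start the TCKO level thus went from 6.82% through 38.5% and 64.1% to 72.3%, while WT was between 0% and 13.9% in these 4 bins. The bin left out between those at 522 and 922 bp holds 1 CpG, at 711 bp, with 28.6% of 14 calls in WT and 78.6% of 14 in TCKO. Of the 64 CpGs in the 4 kb window, 38 had at least 4 calls in each library. In 27 of them TCKO was higher, in 6 the levels were equal and in 5 TCKO was lower, and 4 had no methylated call in either library.

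**Figure D3:**
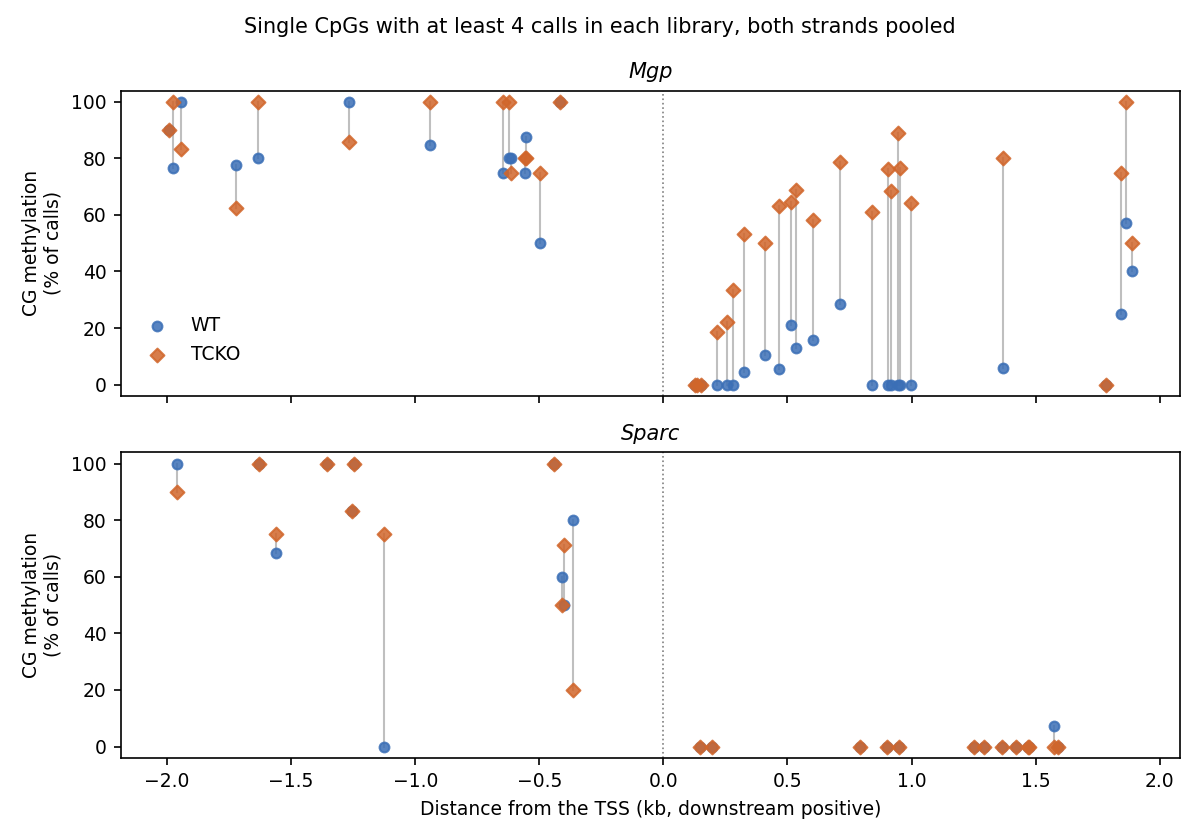
CG methylation (percent of calls, strands pooled) of single CpGs with at least 4 calls in each library, by distance from the TSS (kb) of Mgp and Sparc; circles are WT, diamonds are TCKO, and a grey line joins both values of a CpG. In the first 1 kb downstream of the Mgp start most TCKO symbols lie above those of WT, while downstream of the Sparc start they lie on top of each other at or near 0%.

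In its surroundings (chr6:136847435-136900823) Mgp had 9 bins called higher and none called lower of 51 testable bins, a share of 17.6% against 2.91% higher and 0.0348% lower across the genome. Of the 19 testable bins below 60% in WT, 9 (47.4%) were called, against 14.0% of such bins across the genome. These shares are descriptions, with no test for the locus as a whole. With at least 10 reads per cytosine required, 6 bins were testable and none was called. Besides the pair in intron 1, 7 called bins lay outside the gene. The 3 called bins with the largest difference in the locus were the inner bin of intron 1 and 2 upstream bins. The upstream bin printed above, centred at -22278 bp from the start, had 1 of 43 calls methylated in WT (2.33%) and 26 of 32 in TCKO (81.3%), a difference of 78.9 points (59.7 to 89.0, Fisher exact test, adjusted p = 6.58e-11). A bin centred at -24878 bp had 0 of 48 calls in WT, which allows up to 6.25%, and 66.7% of 24 in TCKO (adjusted p = 2.85e-08 in the exact test).

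All 9 called bins of the Mgp locus were below 30% in WT. Of the 12 testable bins below 30% in WT, the median was 6.34% in WT and 62.4% in TCKO, and 1 stayed below 30% in both libraries. That one is the bin over exon 1 described above. The other 39 testable bins had medians of 74.6% and 86.0%, and none of them was called. A bin at 60% or more in WT cannot gain above 40 points, and only 19 of all 51 testable bins were below 60%. Most of the 39 thus could not be called. Pooled over the locus the level stood at 60.6% in WT (5633 calls) and 75.4% in TCKO (4907 calls), 14.8 points apart (13.0 to 16.5).

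**Figure D4:**
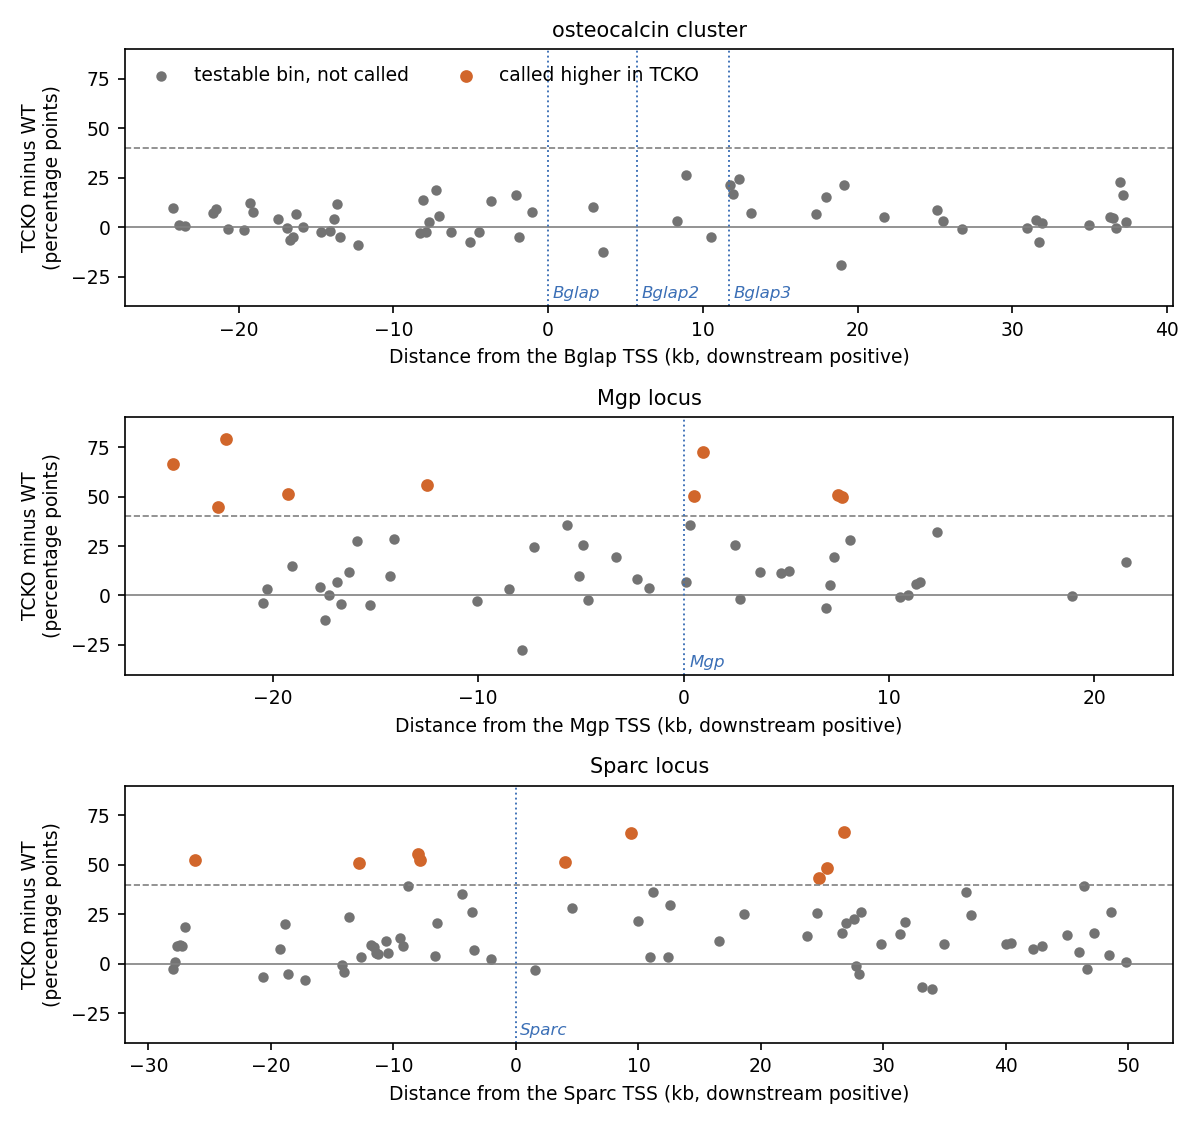
Difference in CG methylation (TCKO minus WT, percentage points) of each testable 200 bp bin against its distance (kb) from the TSS of Bglap, Mgp or Sparc; orange bins were called higher in TCKO, grey bins were not, the dashed line marks 40 points and dotted lines mark start sites. No bin of the osteocalcin cluster is orange, against 9 in the Mgp locus and 9 in the Sparc locus.

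Sparc (ENSMUSG00000018593.13, chr11:55394500-55423183, minus strand) was close to unmethylated in both libraries just after its start and higher in TCKO over its gene body. Within 2 kb of the TSS, 102 of 300 calls were methylated in WT and 96 of 257 in TCKO. The level was 34.0% (28.9% to 39.5%) against 37.4% (31.7% to 43.4%), a difference of 3.35 points (-4.58 to 11.3) that did not pass (Fisher exact test, adjusted p = 0.562). Over cytosines with at least 4 calls it was -11.7 points (Fisher exact test, adjusted p = 0.188). The mean hid 2 unlike sides. The 2 kb downstream had 1 methylated call of 151 in WT (0.662%) and 1 of 132 in TCKO (0.758%), a difference of 0.0953 points (-2.96 to 3.55), while the 2 kb upstream had 67.8% (149 calls) and 76.0% (125 calls). In the 1 kb nearest the start upstream the level was 44.8% (67 calls) and 65.7% (70 calls), 20.9 points apart (4.29 to 36.1), and the 4 CpGs of the printed promoter had 9.09% of 22 calls in WT and 33.3% of 12 in TCKO. Of 24 CpGs with at least 4 calls in each library, 12 had no methylated call in either. Exon 1 had 0 of 15 calls methylated in WT, which allows up to 20%, and 0 of 33 in TCKO, which allows up to 9.09%.

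A minor Sparc transcript starts 3103 bp further upstream, at the 5′ end of the gene record. Within 2 kb of that start the level stood at 64.6% (367 calls) in WT and 76.9% (325 calls) in TCKO, higher by 12.3 points (5.56 to 18.9, Fisher exact test, adjusted p = 0.00196). The window of the main start and that of the minor one thus gave different calls. These windows overlap in part and share calls. This alternative was chosen after the values were seen.

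Over the rest of intron 1 and the gene body Sparc was higher in TCKO. Intron 1 as a whole, 9790 bp long, had 18.6% (16% to 21.5%, 748 calls) in WT and 57.1% (53.2% to 60.9%, 641 calls) in TCKO, 38.5 points apart (33.7 to 43.1), although the first 2 kb after the start stayed near 0% in both. Intron 2 went from 78.2% (339 calls) to 89.4% (265 calls). Introns 4, 5, 6 and 8 differed by 34.4, 17.2, 21 and 17.9 points, each with an interval that excludes 0. Intron 4 had 34 calls in WT and 45 in TCKO. The intervals of introns 3 (17.5 points), 7 (-7.14 points) and 9 (14.5 points) include 0. The last exon, exon 10, had 37.7% (146 calls) and 77.5% (129 calls), 39.8 points apart (28.5 to 49.6). Internal exons had 48 calls or fewer in each library, and no interval of their differences excludes 0.

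The Sparc locus (chr11:55369500-55448183) had 9 bins called higher and none lower of 76 testable bins, which is 11.8% against 2.91% and 0.0348% across the genome. Of the 25 testable bins below 60% in WT, 9 (36.0%) were called, against 14.0%. With at least 10 reads per cytosine, 3 of 14 testable bins were called. The 9 bins called in the main setting lay in intron 1 (2 bins), exon 10 (2 bins) and the flanks (5 bins). The largest difference of the 9, 66.4 points (48.8 to 78.6), was in a bin past the end of the gene, with 30% of 40 calls in WT and 96.4% of 56 in TCKO (adjusted p = 3.31e-10 in the exact test). A bin of intron 1 centred 9380 bp after the start had 29.2% of 24 calls and 95.5% of 22 (Fisher exact test, adjusted p = 1.53e-04). The other one of intron 1, centred 3980 bp after the start, had 16.3% of 86 calls and 67.9% of 81 (Fisher exact test, adjusted p = 2.43e-09), and 90.5% of its bases are marked as repeats in the reference.

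The bin upstream of Sparc printed above, centred at -8020 bp from the start, had 1 of 64 calls methylated in WT (1.56%) and 56.9% of 51 in TCKO, a difference of 55.3 points (40.1 to 68.0, Fisher exact test, adjusted p = 6.28e-10). Its 4 CpGs were not alike in TCKO. From the one nearest the start outwards they had 90.9% (22 calls), 45.5% (11 calls), 33.3% (9 calls) and 11.1% (9 calls), while WT had 6.25% (16 calls) at the first and no methylated call at the others. The bin next to it, centred at -7820 bp, had 34.6% of 78 calls and 87.2% of 94 (Fisher exact test, adjusted p = 1.52e-10). Of the 9 testable Sparc bins below 30% in WT, 6 were called and 3 were also below 30% in TCKO. One of these 3 was centred 1580 bp after the start, with 3.13% of 32 calls in WT and 0 of 23 in TCKO, which allows up to 13.0%. Pooled over the locus, Sparc had 62.7% in WT (8161 calls) and 77.1% in TCKO (7053 calls), 14.3 points apart (12.9 to 15.8).

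**Figure D5:**
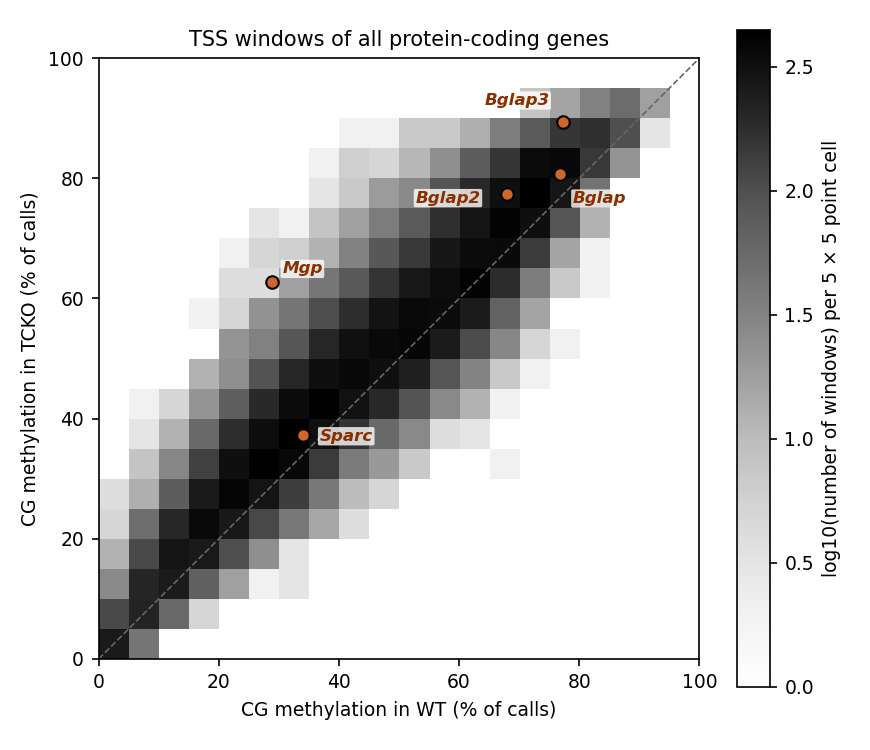
CG methylation (percent of calls) within 2 kb of the TSS of 21931 protein-coding genes in WT (horizontal axis) and TCKO (vertical axis); grey cells of 5 by 5 points are shaded by the log10 number of genes, orange points are the 5 genes and the dashed line marks equal levels. Mgp, at 28.8% and 62.8%, lies in the sparse upper edge, and Bglap, Bglap2 and Sparc lie in the densely filled cells.

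The machinery that carboxylates osteocalcin and matrix Gla protein was read in the same windows, against the background of 37.7% higher and 2.81% lower. Of 5 genes of carboxylation and the vitamin K cycle, 2 were higher in TCKO and none was lower. Ggcx, the carboxylase itself, went from 26.8% (523 calls) to 39.1% (366 calls) (Fisher exact test, adjusted p = 7.08e-04). Vkorc1l1, a vitamin K epoxide reductase, went from 18.7% (951 calls) to 31.1% (793 calls) (Fisher exact test, adjusted p = 4.36e-08). Vkorc1, the reductase that warfarin blocks, had 44.7% and 51.5% and did not pass (exact test, adjusted p = 0.0853).

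Of 15 genes that encode other Gla proteins or proteins listed with them, 12 were higher, none was lower and 3 did not pass. Over all windows 37.7% were higher and 2.81% lower. The median difference was 10.4 points against 4.69 over all windows. F7, F10 and Proz start close together on chromosome 8 (from 13026034 to 13060965), so the 15 genes are not all separate loci. The list holds vitamin K-dependent clotting factors of liver such as F2 (63.9% and 77.9%) and F10 (68.2% and 77.8%), both called higher. The largest differences were 20.7 points at Tgfbi (50.8% to 71.4%) and 19.6 points at Postn (58.1% to 77.7%), both matrix proteins made by osteoblasts, and 19.1 points at Prrg4 (36.0% to 55.1%). Ucma, a Gla protein of cartilage, went from 70.4% (560 calls) to 83.7% (410 calls) (Fisher exact test, adjusted p = 1.29e-05). Gas6, a ligand of TAM receptors, had 52.9% and 49.1% and did not pass.

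Of 7 relatives of Sparc, 1 was higher, 1 was lower and 5 did not pass, against 37.7% higher and 2.81% lower over all windows. Their median difference was 1.53 points. Spock3, a testican proteoglycan, went from 32.8% (479 calls) to 61.8% (351 calls) (Fisher exact test, adjusted p = 6.19e-15). Smoc2, a calcium-binding matricellular protein, fell by 16.5 points to 16.4% (Fisher exact test, adjusted p = 9.47e-08), the one fall that passed among these relatives. Sparcl1, the closest relative named here, had 59.8% and 61.3%. Of both receptors proposed for osteocalcin, Gprc6a was higher, by 7.78 points (Fisher exact test, adjusted p = 0.0122), and Gpr158 had 22.8% and 26.6%.

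Of 10 factors known to act on the osteocalcin promoter, 6 were higher, 1 was lower and 3 did not pass, against 37.7% higher and 2.81% lower over all windows. In WT, those named here ran from 7.90% to 29.2%, far below those of the osteocalcin genes themselves. Runx2, the master regulator of osteoblasts, went from 16.3% (689 calls) to 46.4% (537 calls) (Fisher exact test, adjusted p = 6.20e-28), the largest difference of the 10. Atf4, a bZIP activator of osteocalcin, went from 7.90% to 23.3% and Sp7 (osterix) from 24.1% to 39.7%. Msx2, a homeobox repressor of osteocalcin, fell by 11.6 points to 15.4% (Fisher exact test, adjusted p = 4.26e-05). Vdr, the vitamin D receptor, had 29.2% and 37.4% and did not pass, and Dlx3, a homeobox factor of osteoblasts, had a difference of -0.906 points and did not pass either.

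The markers of osteoblasts and of the other cell types that a bone culture can hold were read as well. Against the 37.7% of all windows called higher, 4 of 5 osteoblast markers were higher in TCKO, with medians of 16.3% in WT and 39.7% in TCKO. The same held for 1 of 5 blood markers (medians 72.9% and 80.4%), 3 of 4 endothelial markers (62.3% and 79.4%), none of 3 muscle markers (45.0% and 37.9%) and 1 of 2 epithelial markers (46.4% and 52.5%). None of these 19 marker windows was lower. Whether a different mix of cell types in the 2 cultures contributes to the values of the 5 genes was not tested.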

How the data were processed

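CG methylation was measured by WGBS in 1 WT and 1 TCKO library, grouped by their labelled genotype. The authors aligned reads to GRCm38 with BSMAP 2.74, with up to 2 mismatches and uniquely mapped reads only, after CASAVA, and deposited for each CG cytosine and strand the counts of methylated calls and of all calls, without normalization. Removal of duplicate reads is not given in the sources used here.

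From these counts, calls were pooled within regions. GENCODE M21 gave the gene models. The TSS was the 5′ end of the protein-coding transcript ranked by basic set, APPRIS, support level and then position. Levels carry Wilson intervals, differences Newcombe intervals, and tests were 2-sided Fisher exact tests with Benjamini-Hochberg adjustment over all windows or all testable bins of the genome, checked on simulated data. A share of 0 is given with a limit of 3 divided by the number of calls. Sequences came from RefSeq promoters and GRCm38. Calculations ran in Python 3.11.15 with scipy 1.17.1, numpy 2.4.6, biopython 1.88 and numba 0.67.0, and plots in matplotlib 3.10.9.

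The named genes were the 5 members, protein-coding neighbours within 25 kb, lists for carboxylation, Gla proteins, Sparc relatives, osteocalcin receptors, promoter factors and cell type markers, the genes with the most similar profile, and the Tet genes for depth. Named bins were those over each TSS and the 3 called bins with the largest difference per locus, and others were named after their values were seen. The members and lists were chosen with earlier results of these data known. Alternatives changed the window, coverage, strand, repeated stretches, start site, bin depth, difference and position. Calls outside CG and data on expression or chromatin were not used here. A gene counted in the list of promoter factors is not reported here by name.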

Additional observations from a re-analysis of the deposited data

How the results depend on the processing

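The call of Mgp kept its direction under each alternative tried, from 11.7 to 40.4 points, but lost the adjusted threshold for windows that leave out most of intron 1 (1 kb upstream to 100 bp downstream, 18.4 points; 2 kb upstream only, 11.7 points). Bglap3 was no longer called for the same windows (17.1 and 7.15 points), for plus-strand cytosines (8.52 points) and at its inner start (2.81 points). Bglap was -0.0534 points over 2 kb upstream, -4.39 on plus-strand cytosines and -5.55 without repeated stretches, and was called on minus-strand cytosines alone (16.1 points). Bglap2 was called for 2 kb upstream only (16.3 points). Sparc was -11.7 points over cytosines with at least 4 calls and -0.286 on plus-strand cytosines, and was called at the 5′ end of the gene record (12.3 points). The inner Bglap3 start and the end of the Sparc record were tried after seeing the data. For the narrower windows and the single strands the number of calls tested is smaller, and otherwise the cause was not tested. With at least 1 read per cytosine the called bins were 1 in the osteocalcin cluster and 20 in the Sparc locus, and with at least 10 reads 0 in the Mgp locus (6 testable bins) and 3 in the Sparc locus (14 testable bins). The other thresholds and bin positions kept each count within 1.5 times. The starts of Bglap, Bglap2, Mgp and Sparc lie in bins with too few CG cytosines or reads to be tested. No paired analysis was possible because each genotype had 1 library, and for the same reason no library could be left out.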

Other observations

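The genes whose methylation profile over the 10 windows of 400 bp around the TSS was nearest to that of a member were named by the root mean square difference over both libraries, among genes sharing at least 8 windows with at least 5 calls in each library. For Mgp these were Slitrk6 (13.8 points over 8 windows) and Tmem176b (14.8 points over 9 windows). Sparc was nearest to Gapdh (3.48 points over 8 windows) and Dnaaf2 (7.83 points over 10 windows). Bglap3 was nearest to Glrp1 (7.37 points) and 4933427D14Rik (8.04 points), Bglap to Tfec (10.1 points) and Scgb2a2 (10.2 points), and Bglap2 to Armc4 and Noxa1 (12.4 points each). These values describe a likeness of 2 libraries and were not tested.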
